A study of Mus musculus with 5 samples.

Results

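The cells described here were regulatory T cells (Tregs) of MC38 tumors, a colon carcinoma line grown under the skin of mice, and they numbered 105 of the 57094 barcodes that passed quality filters in that tumor and of 183224 in the whole scRNA-Seq series. They were chosen by RNA alone. A barcode passed with at least 200 genes and under 10% of its counts from mitochondrial genes, with no upper limit on genes. A member then needed at least 1 unique molecular identifier (UMI, which marks 1 captured molecule) of Cd3d, Cd3e, Cd3g, Trac or Trbc2. It also needed at least 1 UMI of Foxp3, or detection of at least 3 of Ikzf2, Il2ra, Ctla4, Tnfrsf4, Tnfrsf18 and Izumo1r. Barcodes with a UMI of Cd8a or Cd8b1, with 20 or more UMIs of the C1q genes per 10000, or with 5 or more UMIs of H2-Ab1 were left out. Reaction 1 held 61 members and reaction 2 held 44.

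The study asked how JAK1 inhibition after dual checkpoint inhibition changed immune cells. Male C57BL/6J mice 8 to 10 weeks old received isotype antibodies or dual checkpoint inhibition (CPI, antibodies to CTLA4 and to PD-1) 3 times, at days 3, 6 and 9, then vehicle or 20 mg/kg of the JAK1 inhibitor ABT-317 on day 12. Tumors were taken on day 15. The study counts these days from implantation in its scRNA-Seq methods and from enrollment at a minimal tumor size in its description of the MC38 experiment. There were 4 groups: isotype, CPI, CPI + ABT-317 and isotype + ABT-317. Sorted CD45+ and CD45- cells were mixed in equal parts and each group carried its own antibody-linked DNA tag (hashtag), so that 1 droplet reaction held all groups. The deposited key ties each hashtag to a treatment and a reaction. Tumors of 3 mice in each group went into the scRNA-Seq. Which of these mice each hashtag and reaction covered was not given in the sources used here. Reactions are treated as samples, and p-values measure the spread between them, which may be technical. The 3 reactions from tumor-draining lymph nodes (TDLNs), taken on day 15 from mice with TRAMP-C2 prostate tumors and keyed to isotype, CPI and CPI + ABT-317, were used for comparison only.

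Tregs are CD4+ T cells that restrain other lymphocytes. The transcription factor Foxp3 maintains their identity, and they take up IL-2 through the high-affinity receptor whose alpha chain is Il2ra, a signal that passes through JAK1, JAK3 and STAT5. Tregs in tumors are known for high levels of CTLA4, of the costimulatory receptors GITR (Tnfrsf18), OX40 (Tnfrsf4), 4-1BB (Tnfrsf9) and ICOS, and of the chemokine receptor CCR8.

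Treatment and surface protein were read in the MC38 reactions from DNA barcodes attached to antibodies. The barcodes on which the results below rest were as follows, 5′ to 3′, in capitals throughout because the whole run is read. Each treatment had a different hashtag in each reaction, and the part of the tags themselves in treatment differences was not tested.
Isotype, reaction 1: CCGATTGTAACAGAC
Isotype, reaction 2: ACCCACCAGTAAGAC
CPI, reaction 1: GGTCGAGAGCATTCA
CPI, reaction 2: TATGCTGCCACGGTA
CPI + ABT-317, reaction 1: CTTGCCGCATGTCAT
CPI + ABT-317, reaction 2: GAGTCTGCCAGTATC
Isotype + ABT-317, reaction 1: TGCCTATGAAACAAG
Isotype + ABT-317, reaction 2: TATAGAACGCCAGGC
CD278 (ICOS): CGCGCACCCATTAAA
CD357 (GITR): GGCACTCTGTAACAT
CD5: CAGCTCAGTGTGTTG
CD90.2: CCGATCAGCCGTTTA
CD2: TTGCCGTGTGTTTAA
CD11a: AGAGTCTCCCTTTAG
CD45: TGGCTATGGAGCAGA

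Tregs were rare in both reactions. They made up 4.58% of the 1331 barcodes with a CD3 gene in reaction 1 (95% exact Clopper-Pearson interval 3.52 to 5.85%) and 4.97% of 886 in reaction 2 (3.63 to 6.61%). The shares differed by less than these intervals, which cover counting error only. Against all passing barcodes the shares were 0.181% and 0.189%. The other T cell classes were 83 CD4 conventional T cells (a Cd4 UMI, no Treg call) and 669 CD8 T cells (a Cd8a or Cd8b1 UMI, no Cd4).

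The members met the rule by different routes. In reactions 1 and 2, 13 and 12 had a Foxp3 UMI together with at least 3 of the 6 other genes. A further 10 and 4 had Foxp3 with fewer than 3, and 38 and 28 had at least 3 without a Foxp3 UMI. Foxp3 was thus detected in 37.7% and 36.4% of members, against 2.44% and 2.00% of CD8 T cells and 0.288% and 0.333% of C1q-high barcodes, the tumor's macrophage-rich class, which should lack it. A Cd4 UMI was found in 13.1% and 18.2% of members, so most members carried the Treg genes without a detected Cd4 transcript. Among members without Foxp3, 16 and 13 lay just inside the limit with exactly 3 of 6 genes, and 52 and 37 barcodes lay just outside it with exactly 2. Barcodes that met all but the CD8 condition numbered 33 and 19.

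The members fell into a shallow and a deep set. In reactions 1 and 2, 37 and 33 members had fewer than 2500 genes, the upper limit of the study's own filter, with a median of 1683 and 1459 UMIs. The other 24 and 11 had a median of 20149 and 15982 UMIs and held 498525 of the 573339 and 218981 of the 279559 UMIs of all members. All 24 deep members of reaction 1 and 8 of the 11 in reaction 2 carried several hashtags. Sums over all members are therefore mostly sums over the deep ones, and the main RNA results below are given for all members and for those under 2500 genes. No doublet caller was run.

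**Figure D1:**
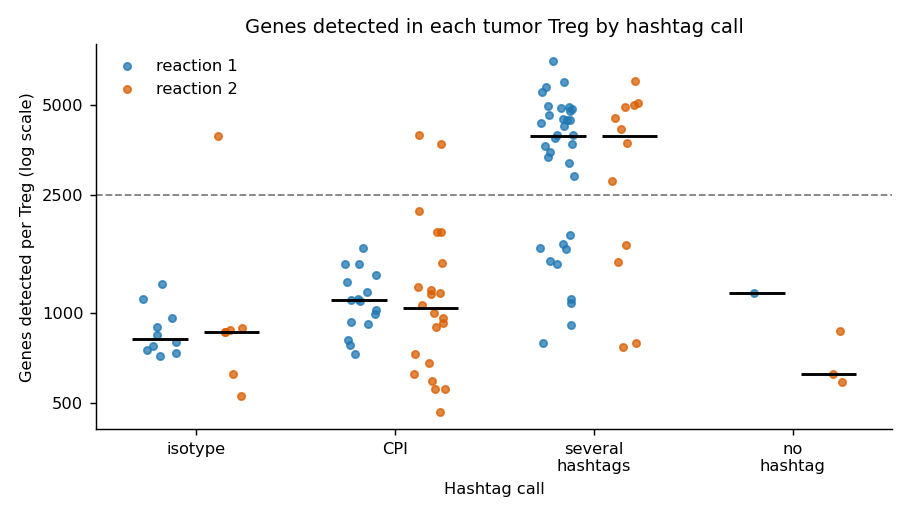
Genes detected per Treg member (y axis, log scale) by hashtag call and reaction, with 1 point a member, a black line at the median and a dashed line at 2500 genes. Members with a single isotype or CPI hashtag lie almost all under the line, and those above it mostly carry several hashtags.

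Markers of other cell types were counted in the members. The NK list (Ncr1, Klrb1c, Klre1, Gzma) was at 0 in all members, and the B cell list showed 1 UMI of Cd79b. Krt8, Krt18 and Krt19 of the epithelial list were at 0, and Epcam of that list had 2 UMIs in reaction 1. Flt3, Xcr1 and Cd209a of the dendritic list were at 0. Collagens and Dcn, the 4 fibroblast markers, summed to 1724 and 5679 CPM (UMIs of a gene per 1000000 UMIs of all genes) in shallow members of reactions 1 and 2 and to 2935 and 2621 CPM in deep ones. The 6 macrophage markers summed to 1256 and 990 CPM in shallow members and to 1426 and 1598 CPM in deep ones, against 14729 and 16493 CPM in C1q-high barcodes. H2-Ab1 and Ccr7 of the dendritic list summed to 62.8 and 104 CPM in all members, 47.3 and 51.0 CPM in CD4 conventional and 45.2 and 39.2 CPM in CD8 T cells. The CD8 list (Cd8a, Cd8b1, Gzmk, Nkg7, Ccl5) summed to 358 and 647 CPM in all members and to 1243 and 2047 CPM in shallow ones. Over barcodes of all depths it stood at 249 and 345 CPM in CD4 conventional and 768 and 1213 CPM in CD8 T cells, so the shallow level has no match here. With both classes under 2500 genes, all 4 measured genes of the list were lower in Tregs than in CD8 T cells in both reactions (median log2 ratio −3.19). The rule held Cd8a and Cd8b1 at 0 in members. The part of these markers in the RNA results was not tested.

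The genes of the rule were high in members by construction, and their levels are given as a description. Foxp3 stood at 52.3 CPM in reaction 1 (exact 95% Poisson interval 35.3 to 74.7) and 85.8 CPM in reaction 2 (55.0 to 128), and at 200.0 and 248 CPM in members under 2500 genes. CD8 T cells held 3.23 and 2.92 CPM of Foxp3. Ikzf2, which encodes the Treg transcription factor Helios, was at 276 and 315 CPM in all members and at 1457 and 990 CPM in those under 2500 genes. Il2ra was at 78.5 and 154 CPM, and at 428 and 512 CPM under 2500 genes. Ctla4, the target of 1 of the CPI antibodies, was at 112 and 204 CPM, and at 495 and 594 CPM under 2500 genes. All of these levels were several-fold higher in the shallow set.

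Beyond the genes of the rule, RNA in Tregs is compared with that in CD4 conventional and CD8 T cells with no test, since RNA chose all 3 classes. Among 4284 genes with at least 50 UMIs in Tregs and CD4 conventional T cells together, 1193 (27.8%) were higher in Tregs in both reactions and 1093 (25.5%) lower. Of the list of tumor and tissue Treg genes, 11 of 16 measured genes were higher in both reactions and none lower in both, with a median log2 ratio of 0.63 against 0.01 over all genes. Macrophage markers moved the same way, with 3 of 4 measured higher and none lower (median 0.82), and of the fibroblast markers 2 of 4 were higher and none lower (0.12). The ratio to CD8 T cells was higher in both reactions for 19 of 23 genes of that list and lower for 3, with a median of 1.37 against 0.15 over all 8968 genes, of which 41.8% were higher and 16.7% lower, and all 5 measured macrophage markers were higher there too (1.41). Under 2500 genes the list stood at 7 higher and none lower of 11 against CD4 conventional T cells, with a median of 0.26 against −0.02 over 731 genes, of which 30.0% were higher and 29.8% lower. In that set both measured macrophage markers were lower in Tregs (−1.25), and 3 of 4 fibroblast markers were higher (2.04). Against CD8 T cells under 2500 genes 16 of 19 genes of the list were higher and 1 lower, with a median of 1.23 against 0.13, beside 38.3% and 21.7% of 2882 genes, and of the macrophage markers 1 of 4 was higher and 1 lower (−0.30). The part of these markers in the list's counts was not tested.

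Costimulatory receptors were among the genes higher in Tregs. Tnfrsf9, which encodes 4-1BB, stood at 174 CPM in Tregs of reaction 1 (142 to 212) and 283 CPM in reaction 2 (224 to 352), at 82.0 and 42.5 CPM in CD4 conventional T cells and at 24.4 and 32.1 CPM in CD8 T cells. Under 2500 genes Tnfrsf9 was at 789 and 759 CPM in Tregs, 416 and 232 CPM in CD4 conventional and 149 and 137 CPM in CD8 T cells. Tregs thus held the highest level and CD8 T cells the lowest in both reactions and both sets. Tnfrsf1b, the TNF receptor 2 gene, was at 75.0 and 75.1 CPM in Tregs, 15.8 and 22.7 CPM in CD4 conventional and 28.5 and 35.8 CPM in CD8 T cells, and under 2500 genes at 401 and 330, 98.9 and 77.4, and 137 and 166 CPM. Icos was at 134 and 175 CPM in Tregs, 72.5 and 70.8 CPM in CD4 conventional and 56.1 and 64.6 CPM in CD8 T cells, and under 2500 genes at 588 and 743, 277 and 368, and 296 and 341 CPM. The Tnfrsf1b and Icos levels of Tregs lay above those of both other classes in each reaction and both sets. Of the costimulation list, 5 of 6 measured genes were higher than in CD4 conventional T cells in both reactions and none lower, and under 2500 genes 5 of 6 were higher and 1 lower, beside the shares over all genes above. Both counts include the rule genes Tnfrsf4 and Tnfrsf18.

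Genes known from tissue Tregs followed. Klrg1, an inhibitory receptor of differentiated lymphocytes, was at 36.6 and 68.0 CPM in Tregs, at 3.15 CPM and 0 in CD4 conventional and at 1.76 and 2.92 CPM in CD8 T cells. Klrg1 rested on 21 and 19 UMIs in Tregs, and under 2500 genes it was at 134 and 314 CPM in Tregs, 19.8 CPM and 0 in CD4 conventional and 4.97 and 11.7 CPM in CD8 T cells. Itgae, the alpha chain of CD103, was at 26.2 and 25.0 CPM in Tregs, at 0 in both reactions of CD4 conventional T cells and at 1.76 and 4.58 CPM in CD8 T cells, and under 2500 genes at 147 and 82.5 CPM, at 0 in both reactions, and at 7.46 and 20.4 CPM. Both genes were higher in Tregs than in either class in each reaction and both sets. Pglyrp1, a peptidoglycan recognition protein gene, ranked first by mean ratio to CD4 conventional T cells among genes outside the rule with at least 50 UMIs, a limit that Klrg1 did not reach there, with log2 ratios of 2.42 and 4.28. Pglyrp1 was at 99.4 and 161 CPM in Tregs, 15.8 and 5.66 CPM in CD4 conventional and 10.9 and 17.1 CPM in CD8 T cells, and under 2500 genes at 575 and 528, 59.4 and 38.7, and 39.8 and 84.6 CPM. Ccr8 was at 31.4 and 42.9 CPM in Tregs, 12.6 and 34.0 CPM in CD4 conventional and 5.29 and 4.17 CPM in CD8 T cells. For Ccr8 the order of Tregs and CD4 conventional T cells was not stable: under 2500 genes it was at 120 and 132 CPM in Tregs and at 39.6 and 174 CPM in CD4 conventional T cells.

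**Figure D2:**
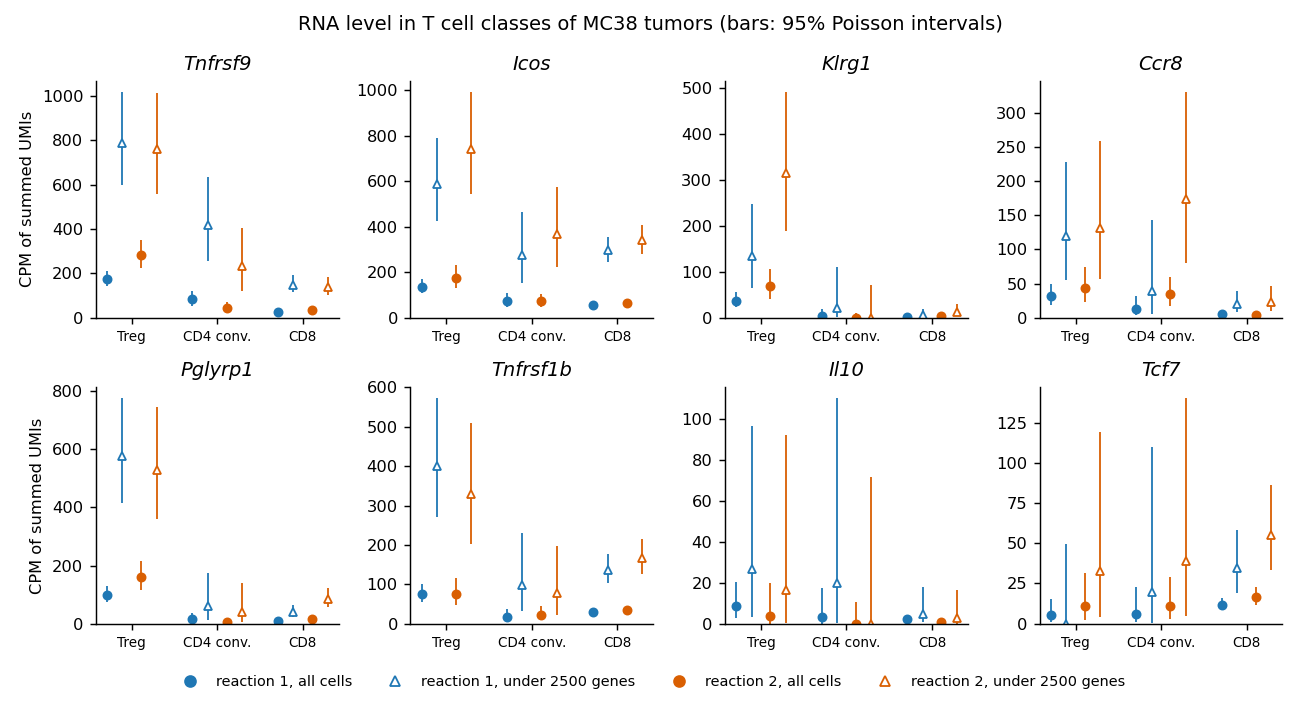
Levels of 8 genes in CPM (y axis) in Tregs, CD4 conventional and CD8 T cells of reactions 1 and 2, for all barcodes of a class (filled circles) and those under 2500 genes (open triangles), with exact 95% Poisson bars for counting error. Tnfrsf9, Klrg1 and Pglyrp1 are highest in Tregs in both reactions, Ccr8 overlaps between Tregs and CD4 conventional T cells, and Il10 and Tcf7 rest on few UMIs.

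Other genes named by their ratio to CD4 conventional T cells were of mixed function. Itgb7, the beta chain of a gut-homing integrin, had log2 ratios of 2.42 and 1.86 in reactions 1 and 2. Tox, a transcription factor of chronically stimulated T cells, had log2 ratios of 1.21 and 2.30, and Inpp5d, which encodes the phosphatase SHIP1, had 2.02 and 1.39. The chemokine gene Ccl7 had 0.13 and 3.36, and −0.57 and 2.72 under 2500 genes, so its direction was not the same in both reactions there. Lower in Tregs were Arg1, the arginase of myeloid cells (−2.82 and −0.89), Myc (−1.65 and −1.06), the T cell activation factor Nfatc1 (−2.02 and −0.60) and the fatty acid binding protein Fabp5 (−1.46 and −1.0). Fabp5 reached 0.22 and 0.91 under 2500 genes, in the opposite direction. Against CD8 T cells, the cytotoxic and effector genes Ly6c2 (−2.87 and −1.93) and Klrd1 (−2.30 and −2.20) were lower in Tregs. Gzma was at 0 in Tregs of both reactions, so its ratios (−1.68 and −3.24) depend on the prior of 1 count. Tnfsf8, the CD30 ligand gene (3.57 and 5.37), and Areg (3.84 and 1.85) were higher.

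Suppressive molecules were detected unevenly. Il10, the suppressive cytokine gene, rested on 5 and 1 UMIs in Tregs, or 8.72 and 3.58 CPM. Gzmb, the granzyme B gene, was at 36.6 and 57.2 CPM in Tregs, 6.31 and 2.83 CPM in CD4 conventional and 18.2 and 46.2 CPM in CD8 T cells, but under 2500 genes at 93.6 and 231 CPM in Tregs, 19.8 and 19.4 CPM in CD4 conventional and 122 and 268 CPM in CD8 T cells. Areg, which encodes the tissue repair factor amphiregulin, was at 171 and 118 CPM in Tregs, 155 and 39.6 CPM in CD4 conventional and 11.8 and 33.3 CPM in CD8 T cells. Gzmb was thus highest in Tregs over all barcodes and highest in CD8 T cells under 2500 genes. Under 2500 genes Areg was lower in Tregs (454 CPM) than in CD4 conventional T cells (851 CPM) in reaction 1 and higher in reaction 2 (429 against 271 CPM). Tgfb1 was at 54.1 and 114 CPM in Tregs and at 75.7 and 68.0 CPM in CD4 conventional T cells, with the order reversed between reactions. Of the suppressive list, only 3 of 13 genes had enough UMIs against CD4 conventional T cells, and 2 of these, one of them the rule gene Ctla4, were higher in both reactions (median log2 ratio 0.82), beside 27.8% of all genes. Under 2500 genes 1 of 3 was higher and none lower, with a median of −0.14, beside 30.0% and 29.8% of all genes.

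Genes of IL-2 reception and of JAK and STAT signaling, the pathway that ABT-317 targets, were also counted. Of 14 measured, 11 were higher in Tregs than in CD4 conventional T cells in both reactions and 1 lower, with a median log2 ratio of 0.62, beside 27.8% higher and 25.5% lower of all genes. Under 2500 genes 6 of 11 were higher and none lower, with a median of 0.28, beside 30.0% and 29.8%. Against CD8 T cells 17 of 20 were higher and 1 lower, beside 41.8% and 16.7% of all genes. The list includes the rule gene Il2ra. Il2rb, the IL-2 receptor beta chain gene, was at 69.8 and 114 CPM in Tregs, 47.3 and 45.3 CPM in CD4 conventional and 40.0 and 56.2 CPM in CD8 T cells. Il2rg, the shared gamma chain gene, was at 85.5 and 157 CPM, 37.8 and 79.3 CPM, and 49.6 and 71.2 CPM in the same order of classes. Under 2500 genes Il2rb was at 334 and 314, 218 and 310, and 244 and 292 CPM, and Il2rg at 227 and 479, 178 and 310, and 204 and 309 CPM. Both receptor chains were highest in Tregs, but for Il2rb in reaction 2 under 2500 genes the 3 classes lay close together. Jak1 itself was at 119 and 136 CPM in Tregs, 114 and 108 CPM in CD4 conventional and 116 and 108 CPM in CD8 T cells, levels that lay close together, and under 2500 genes at 187 and 363, 237 and 310, and 306 and 295 CPM, with no common order. Ccr2, the chemokine receptor that binds Ccl2, was at 34.9 and 68.0 CPM in Tregs, 25.2 and 14.2 CPM in CD4 conventional and 20.0 and 17.5 CPM in CD8 T cells, and under 2500 genes at 200.0 and 231, 139 and 77.4, and 94.4 and 108 CPM.

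Surface proteins were a readout that the rule did not use, and they were tested. Antibody UMIs were summed per class, hashtag and reaction and fitted with edgeR's quasi-likelihood test. Against CD8 T cells, with 4 pairs of sums from isotype and CPI hashtags and the pair as a block, of which 2 sums held 7 barcodes because a minimum of 5 was used here, 3 of 122 proteins (2.46%) were higher on Tregs and 2 (1.64%) lower at an adjusted p of 0.05. CD5, an inhibitory coreceptor of T cells, was higher by 2.21 on the log2 scale (SE 0.18, edgeR adjusted p = 0.00184). CD357, the GITR protein whose gene belongs to the rule, was higher by 0.83 (SE 0.06, edgeR adjusted p = 0.00122), and the adhesion protein CD2 by 0.87 (SE 0.10, edgeR adjusted p = 0.00756). CD8b (−1.61) and CD8a (−0.73) were lower, and both classes had been chosen on Cd8 RNA. The calls of CD2 and CD8a were lost when the CPI sums of reaction 1 were left out (edgeR adjusted p = 0.0822 for both without the Treg sum).

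CD357 illustrates these levels. Per 10000 antibody UMIs, Tregs of reactions 1 and 2 carried 69.9 and 56.0 UMIs of CD357 with the isotype hashtag and 71.7 and 63.0 with the CPI hashtag. CD8 T cells carried 40.0 and 32.5 with isotype and 37.9 and 33.3 with CPI, and C1q-high barcodes 28.6 and 28.5, and 31.1 and 30.6. All 4 Treg sums of CD357 lay above all 4 CD8 sums. CD5 stood at 148 and 155 on isotype Tregs and at 184 and 147 on CPI Tregs, against 14.1 and 13.3 on isotype C1q-high barcodes. Antibodies to other Treg proteins gave little contrast. CD25, the Il2ra protein, was at 13.6 and 12.1 on isotype Tregs against 12.0 and 12.1 on isotype C1q-high barcodes, and FR4, the Izumo1r protein, was at 160 and 148 against 146 and 143. Both proteins were thus at about the level of a class that should lack them, although their genes chose the members.

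Against CD4 conventional T cells, only the CPI hashtag gave sums of at least 10 barcodes in both classes, so 2 pairs were fitted with the pair as a block. Here 3 of 122 proteins (2.46%) were higher on Tregs and 2 (1.64%) lower by edgeR. CD278, the ICOS protein, was higher by 0.71 on the log2 scale (SE 0.07, edgeR adjusted p = 0.0322), with normalized levels of 6691 and 5961 CPM on Tregs and 4113 and 3621 CPM on CD4 conventional T cells. CD357 was higher by 0.63 (SE 0.09, edgeR adjusted p = 0.0438). The class II protein I-A/I-E was higher by 1.23 (SE 0.15, edgeR adjusted p = 0.0322), with a per-cell median of 33.4 and 18.3 UMIs per 10000 antibody UMIs and highest cells at 361 and 538, but with all hashtags pooled by 0.46 (SE 0.04, edgeR adjusted p = 0.00597). CD90.2, the Thy-1 protein (−0.75), and CD4 (−0.76) were lower, and CD4 conventional T cells had been chosen for Cd4 RNA. With all hashtags pooled CD90.2 and CD4 differed by −0.44 and −0.43, and CD278 and CD357 by 0.50 and 0.53. All 5 calls missed the threshold when edgeR used DESeq2 size factors. CD5 and CD2, both called against CD8 T cells, were not called here. CD5 was higher by 0.49 (edgeR adjusted p = 0.0523), with 18578 and 14628 CPM on Tregs and 14364 and 9629 CPM on CD4 conventional T cells. With all hashtags pooled CD5 was higher by 0.55 (edgeR adjusted p = 0.0196). CD2 was higher by 0.34 (edgeR adjusted p = 0.097). Of other receptors named for their role, CD279 (PD-1) differed by 0.13, CD223 (LAG-3) by −0.03, CD137 (4-1BB) by 0.09 and CD134 (OX40) by −0.01 on the log2 scale, and none of these 4 passed. Against CD8 T cells under 2500 genes they differed by 0.13, −0.01, 0.08 and −0.04, and none passed. The signal of these antibodies was not checked in a class that should lack the proteins. The sums against CD4 conventional T cells came only from mice given antibodies to PD-1 and CTLA4.

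Treatment was read from the hashtags. Of the 61 members in reaction 1, 10 carried the isotype hashtag alone, 16 the CPI hashtag alone, 34 several hashtags and 1 none. Of the 44 members in reaction 2, 7 carried isotype, 22 CPI, 12 several and 3 none. Isotype members of reaction 1 had 96 to 475 UMIs of their own hashtag (median 174) and 7 to 19 of the CPI hashtag, and CPI members had 72 to 1423 of theirs (median 200.0) and 24 to 50 of the isotype hashtag. In reaction 2, isotype members had 45 to 158 UMIs of their own hashtag (median 87.0) and 3 to 25 of the CPI hashtag, and CPI members had 41 to 825 (median 99.0) and 5 to 32. Isotype and CPI hashtags thus did not overlap within these members, which the call itself required, since members with both called were counted under several. The CPI + ABT-317 hashtag did overlap with the assigned one: it was at 28 to 117 UMIs in CPI members of reaction 1 and at 42 to 136 (median 68.0) in isotype members of reaction 2, below the count at which it was called.

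No member carried the hashtag of CPI + ABT-317 or of isotype + ABT-317 alone. By counting error alone, a count of 0 allows a share of up to 4.92% of the 61 members and 6.82% of the 44. Here 3 counts are taken as the limit for every 0. Such limits hold only under this call, which left 34 and 12 members with several hashtags unassigned, and do not bound the true share. Few T cells of any class carried these hashtags: barcodes with a CD3 gene numbered 15 and 20 with CPI + ABT-317 and 22 and 22 with isotype + ABT-317 in reactions 1 and 2. Of all passing barcodes with the CPI + ABT-317 hashtag, 0 of 2153 and 0 of 2072 were Tregs, which allows up to 0.139% and 0.145%. For isotype + ABT-317 the counts were 0 of 2968 and 0 of 2175, which allows up to 0.101% and 0.138%. A hashtag was called CPI + ABT-317 only from 205 and 163 UMIs upward, against 68 and 43 for isotype and 42 and 38 for CPI. Passing barcodes with these hashtags were deep, with medians of 16649 and 22854 UMIs for CPI + ABT-317 and 16654 and 23933 for isotype + ABT-317. When the hashtag that led the next by 1 natural log unit was taken instead, 3 and 5 members fell to CPI + ABT-317 and 2 and 1 to isotype + ABT-317. The 5 of reaction 2 exceed the 3 counts taken as the limit above. When each hashtag's own background was first subtracted, an alternative chosen after seeing the data, the counts were 0 and 1, and 2 and 1. Effects of ABT-317 on Tregs could not be fitted under the main hashtag call.

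Among barcodes with a CD3 gene, the Treg share was 7.14% with isotype (10 of 140, 3.48 to 12.7%) and 3.96% with CPI (16 of 404, 2.28 to 6.35%) in reaction 1. In reaction 2 it was 7.87% with isotype (7 of 89, 3.22 to 15.5%) and 6.92% with CPI (22 of 318, 4.39 to 10.3%). The isotype share was higher in both reactions, within overlapping intervals. Among barcodes under 2500 genes, isotype stood at 23.8% (10 of 42, 12.1 to 39.5%) and 23.1% (6 of 26, 8.97 to 43.6%) and CPI at 4.01% (16 of 399, 2.31 to 6.43%) and 6.58% (20 of 304, 4.06 to 9.98%). With every barcode thinned to 1000 UMIs the shares were 27.6% and 17.6% with isotype and 2.83% and 6.25% with CPI. Depth differed with the hashtag: passing isotype barcodes had a median of 5567 and 7572 UMIs and CPI barcodes 2094 and 2800. With 2 samples a group, the smallest two-sided p of an exact permutation test is 0.333, and no test of the shares was run.

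The Treg share depended most on what it was set against. Relative to Tregs and CD8 T cells together, Tregs made up 58.8% (10 of 17, 32.9 to 81.6%) and 41.2% (7 of 17, 18.4 to 67.1%) with isotype and 8.79% (16 of 182, 5.11 to 13.9%) and 12.9% (22 of 171, 8.24 to 18.8%) with CPI. The intervals of isotype and CPI did not overlap in reaction 1 and overlapped narrowly in reaction 2. Relative to all passing barcodes the order turned: Tregs were 0.0945% and 0.0751% with isotype and 0.759% and 1.56% with CPI. CD8 T cells were 0.0661% and 0.107% of passing barcodes with isotype and 7.87% and 10.5% with CPI. Both classes were thus a larger share of the CPI barcodes, and CD8 T cells by the wider margin. Passing barcodes with a single hashtag were uneven, at 10585 and 9315 with isotype and 2108 and 1413 with CPI, although the study describes equal hashtag representation. The part of the hashtag calls in these shares was not tested. When a hashtag was called by leading the next by 1 natural log unit, the share among barcodes with a CD3 gene was 9.30% and 1.96% with isotype and 15.5% and 13.6% with CPI, and its direction turned.

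**Figure D3:**
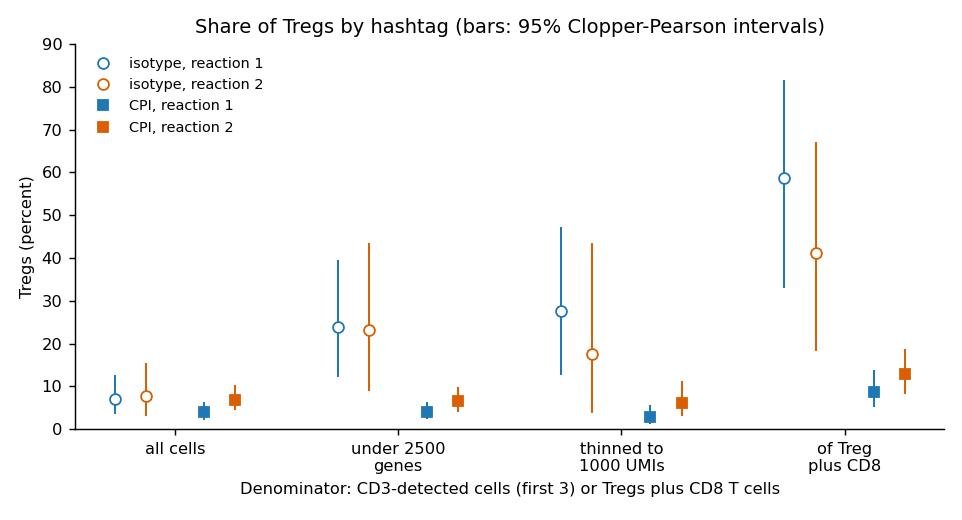
Treg share in percent (y axis) with the isotype or CPI hashtag in reactions 1 and 2, over 4 denominators, with exact 95% Clopper-Pearson bars for counting error. The isotype share is the higher one in each setting shown and in both reactions. Against Tregs plus CD8 T cells it is 58.8% and 41.2%, and the CPI share 8.79% and 12.9%.

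RNA of CPI and isotype Tregs was compared over sums per hashtag and reaction. Sums of at least 10 members were isotype in reaction 1 and CPI in both reactions, which left 1 residual degree of freedom and took the lone isotype sum to vary like the CPI sums. Of 722 genes tested, none was higher with CPI and 1 (0.139%) was lower by edgeR, and 44 had an unadjusted p under 0.05. The gene that fell was Ifi27l2a, which interferon induces, by 2.07 on the log2 scale (SE 0.37, edgeR adjusted p = 1.7e-05), from 6700 normalized CPM in the isotype sum to 2033 and 1250 in the CPI sums. DESeq2 called none of these genes (7 at an unadjusted p under 0.05). Among members under 2500 genes, Ifi27l2a was again the only call of 714 genes by edgeR (58 at an unadjusted p under 0.05), lower by 1.83 (edgeR adjusted p = 0.00901).

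A fit of 4 sums, chosen after seeing the data, added the 7 isotype members of reaction 2. Of the 19087 UMIs of that sum, 11638 (61.0%) came from 1 member with 3928 genes, which met the rule through 1 UMI of Foxp3 and held 1 CD3 gene. With it, Ifi27l2a differed by −1.45 (edgeR adjusted p = 0.766), and none of 387 genes was called in either direction (22 at an unadjusted p under 0.05 by edgeR, 5 by DESeq2). Among members under 2500 genes, which leaves that member out, Ifi27l2a stood at 8650 and 6119 normalized CPM with isotype and at 2445 and 2170 with CPI. The difference was −1.72 (edgeR adjusted p = 0.0502), which missed the threshold, and none of 342 genes was called (35 at an unadjusted p under 0.05). Isotype and CPI sums of Ifi27l2a did not overlap in any of these fits. Without the isotype sum of reaction 1 the fit of 4 sums called 15 higher and 5 lower, with that 1 member still in the isotype sum that remained. Icos RNA was at 415 and 210 CPM in isotype Tregs and at 813 and 465 CPM in CPI Tregs, a difference of 1.05 on the log2 scale (edgeR adjusted p = 0.772). The CPI sums of Icos lay above the isotype sums, and the difference did not pass the test. The isotype sums held only 14469 and 19087 UMIs of all genes, so their Icos levels rest on few UMIs. The lower one, of reaction 2, includes the member that gave 61.0% of that sum, and no Icos level without it is given.

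No gene of the tumor and tissue Treg list passed, with a median log2 difference of 0.08 over 13 genes against 0.05 over all genes tested, and of 0.28 over 7 genes against 0.01 with the fourth sum. The interferon-induced list had a median of −0.36 over 11 genes and −0.24 over 7 with the fourth sum.

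Surface proteins of Tregs did differ between CPI and isotype. Of 122 proteins, 4 (3.28%) rose with CPI and 1 (0.820%) fell by edgeR, in the fit of 3 sums and in that of 4 sums. The fit of 3 sums has 1 isotype sum, which is taken to vary like the CPI sums, so the values of the 4 sums stand beside it. No protein fit used another hashtag call. With the hashtag that led by 1 natural log unit, isotype held 1 member in reaction 2 instead of 7, and CPI 9 instead of 22. No protein fit was limited to members with Foxp3 either. In reactions 1 and 2, Foxp3 was detected in 6 of 10 and 5 of 7 isotype members, but in 5 of 16 and 7 of 22 CPI members. At least 2 CD3 genes were found in 6 and 6 isotype members and in 15 and 19 CPI members. The part of this difference in membership in the protein differences was not tested. ICOS (CD278) rose by 1.18 on the log2 scale (SE 0.13, edgeR adjusted p = 0.00373), by 1.12 with 4 sums (SE 0.10, edgeR adjusted p = 7.1e-04) and by 1.07 with 4 sums under 2500 genes (SE 0.11, edgeR adjusted p = 8.4e-07). Per 10000 antibody UMIs, isotype Tregs carried 28.2 and 30.8 UMIs of CD278 and CPI Tregs 66.1 and 59.8 in reactions 1 and 2. Per-cell medians were 27.2 and 27.0 with isotype and 61.6 and 62.8 with CPI. The lowest CPI cells, at 32.0 and 28.3, lay within the isotype ranges of 13.2 to 41.9 and 13.2 to 56.5. C1q-high barcodes had a median of 26.0 and 25.7 with isotype and 26.6 and 25.7 with CPI, so isotype Tregs lay at about the level of that class. CD8 T cells had a median of 24.4 and 29.9 with isotype and 32.5 and 32.4 with CPI, and sums of 25.5 and 31.8, and 36.0 and 29.3. The CPI sum of CD8 T cells in reaction 2 held barcodes with very high counts of other antibodies, such as FR4 at 394 UMIs per 10000 in the sum against a median of 145 and a highest cell of 5040, and its sums of CD278, CD357, CD90.2, CD2, CD11a and CD45 lay below their medians. Whether the difference in Tregs exceeded that in CD8 T cells was not tested.

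The other proteins called in both fits were CD90.2, CD2, CD11a and CD45. CD90.2 rose by 1.27 (SE 0.14, edgeR adjusted p = 0.00373), and by 1.34 with 4 sums (SE 0.11, edgeR adjusted p = 7.1e-04), from 32.7 and 29.7 UMIs per 10000 on isotype Tregs to 83.3 and 72.7 on CPI Tregs. On CD8 T cells CD90.2 was at 24.6 and 62.0 with isotype and 111 and 101 with CPI, and on C1q-high barcodes at 10.1 and 10.8, and 34.5 and 19.4. Over all passing barcodes it was at 10.8 and 10.8 with isotype and 78.6 and 82.4 with CPI. CD90.2 was thus higher with CPI in all 3 classes and over all barcodes, where its CPI level was about that of CPI Tregs. CD2 rose by 0.72 (SE 0.10, edgeR adjusted p = 0.0078), and by 0.85 with 4 sums (SE 0.10, edgeR adjusted p = 0.00223), from 38.8 and 32.1 to 62.8 and 63.1. CD2 was at 16.4 and 20.3, and 36.2 and 32.3, on CD8 T cells, at 9.09 and 9.18, and 15.3 and 12.8, on C1q-high barcodes, and at 8.87 and 8.90, and 16.0 and 16.3, over all passing barcodes. CD2 was thus higher with CPI in all 3 classes, and whether Tregs differed from the other classes in this was not tested. The integrin CD11a rose by 0.77 (SE 0.11, edgeR adjusted p = 0.00797), and by 0.87 with 4 sums (SE 0.11, edgeR adjusted p = 0.00223), from 20.6 and 17.8 to 35.1 and 34.0. CD11a was at 18.3 and 25.9, and 35.7 and 35.5, on CD8 T cells, at 19.7 and 21.5, and 19.0 and 19.8, on C1q-high barcodes, and at 16.8 and 18.5, and 18.8 and 20.4, over all passing barcodes. For CD2 and CD11a the isotype and CPI sums of Tregs did not overlap. CD45 fell by 0.84 (SE 0.11, edgeR adjusted p = 0.00607), and by 0.82 with 4 sums (SE 0.09, edgeR adjusted p = 0.0022), from 47.8 and 46.9 to 27.6 and 25.2. CD45 was also lower with CPI on CD8 T cells (31.2 and 32.5 against 25.2 and 21.2) and on C1q-high barcodes (30.2 and 32.5 against 24.0 and 23.7), differences that were not tested. With 4 sums under 2500 genes, further proteins were called, among them CD48 and several known from other cells. CD8b, of CD8 T cells, was higher with CPI by 0.93 (edgeR adjusted p = 0.0144; 0.89 and 0.0693 over all members), although members had no Cd8 UMI. I-A/I-E was higher by 0.77 (edgeR adjusted p = 0.0144), from 2440 to 6935 normalized CPM in reaction 1 but only from 4585 to 4679 in reaction 2. CD86, of antigen-presenting cells, was higher by 0.37 (edgeR adjusted p = 0.0298) and CD48 by 0.41 (edgeR adjusted p = 0.00666), and the myeloid integrin CD11b fell by 0.67 (edgeR adjusted p = 0.00554). These moved with CPI in the same sums as CD278, CD90.2, CD2 and CD11a, and their part in those differences was not tested. The GITR protein CD357 and CD25 showed no such step, with CD25 at 13.6 and 12.1 against 13.7 and 12.3.

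**Figure D4:**
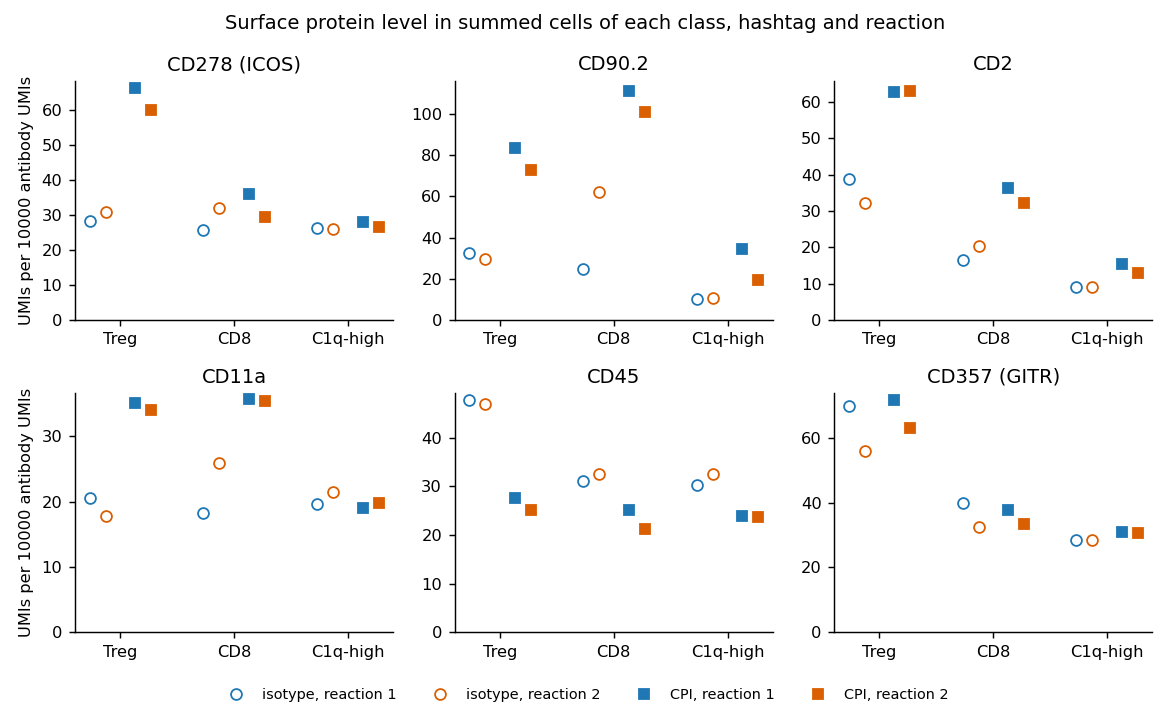
Surface protein in UMIs per 10000 antibody UMIs (y axis) for 6 proteins on Tregs, CD8 T cells and C1q-high barcodes, with the isotype (open) or CPI (filled) hashtag in reactions 1 and 2. CD278 on Tregs goes from 28.2 and 30.8 with isotype to 66.1 and 59.8 with CPI, CD45 is lower with CPI in all 3 classes, and CD357 stays near its isotype level.

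Tregs of TDLNs, chosen by the same rule with the added condition of no UMI of Cd79a, Cd79b or Ms4a1, numbered 174, 370 and 20 in the 3 reactions. Over the genes shared by both annotations, the tumor sums held 572270 and 279018 UMIs and the TDLN sums 334439, 682179 and 28547. Of 6292 genes, 2188 (34.8%) were higher in tumor Tregs and 1452 (23.1%) lower by edgeR. Among barcodes under 2500 genes, 305 (18.8%) of 1622 were higher and 289 (17.8%) lower. Tissue, tumor line, dissociation, cell sort, annotation and Cell Ranger version all went with the groups and cannot be told apart.

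Genes with the lowest p in either direction included many known from other cell types. Col3a1, Sparc, Fn1 and Dcn, matrix genes of fibroblasts, were at 0 in TDLN Tregs and at least 476-, 289-, 298- and 231-fold higher in tumor Tregs, against a floor of 3 UMIs over the group. All 4 fibroblast markers passed, as did all 4 tested macrophage markers, and under 2500 genes all 4 and both tested macrophage markers did. S100a6 (12795 and 7178 normalized CPM in tumor Tregs; 230, 298 and 174 in TDLN Tregs), Lgals1 (8676 and 8181 against 168, 317 and 116) and Cd63 (2328 and 2115 against 14.0, 12.8 and 0) were also among the 10. In the other direction, the B cell genes Bank1 and Aff3 were at 0 in tumor Tregs and at least 130- and 134-fold lower. B cell RNA was thus present in the TDLN sums despite the added condition. The part of fibroblast, macrophage and B cell RNA in these counts was not tested.

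Genes of naive and recirculating T cells were low in tumor Tregs. Of 11 tested, 10 were lower and none higher, beside 23.1% and 34.8% of all genes (median log2 difference −3.68 against 0.15). Under 2500 genes 9 of 10 were lower and none higher, beside 17.8% and 18.8% (−2.62 against −0.05). B cell RNA was present in the TDLN sums, and its part in these differences was not tested. Ccr7, the receptor that guides cells into lymph nodes, was at 29.0 and 14.3 normalized CPM in tumor Tregs and at 731, 800 and 608 in TDLN Tregs, lower by 4.94 on the log2 scale (SE 0.35, edgeR adjusted p = 6.7e-15). S1pr1, which lets lymphocytes leave lymph nodes, was at 4.84 and 9.51 against 297, 348 and 319. Tcf7, a transcription factor of naive and memory T cells, was at 7.26 and 14.3 against 244, 225 and 319, and Bach2, a repressor of effector genes, at 19.4 and 28.5 against 1028, 803 and 811. In all of these genes the tumor and TDLN sums were far apart. Under 2500 genes the differences were −3.95 for Ccr7, −5.48 for S1pr1, −4.12 for Tcf7 and −3.87 for Bach2. Bcl2, the survival gene, was lower by 4.04 (edgeR adjusted p = 1.2e-10).

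The count of tumor Treg genes that differed depended on the deep barcodes. Of the tumor and tissue Treg list, 9 of 21 were higher and 4 lower, shares near the 34.8% and 23.1% of all genes. Under 2500 genes 14 of 17 were higher and 1 lower, beside 18.8% and 17.8% of all genes. Klrg1 was at 50.8 and 90.3 normalized CPM in tumor Tregs and at 5.60, 4.26 and 0 in TDLN Tregs, higher by 3.74 on the log2 scale (SE 0.57, edgeR adjusted p = 4.9e-07) and by 5.59 under 2500 genes. Klrg1 was higher in both sets and in each sum. Tnfrsf9 was at 242 and 376 against 148, 195 and 0, higher by 0.93 (edgeR adjusted p = 0.0106) and by 2.22 under 2500 genes (edgeR adjusted p = 8.6e-05). The Tnfrsf9 call over all members was lost when either tumor reaction was left out (0.0517 without reaction 1 and 0.321 without reaction 2, edgeR adjusted p), without TDLN reaction 3 (0.0783), without the filter on low counts (0.139) and with DESeq2 (0.363). Of the costimulation list, 1 of 8 was higher over all members and 4 lower (median −0.73), and under 2500 genes 4 of 7 were higher and none lower (1.57), counts that include the rule genes Tnfrsf4 and Tnfrsf18. Genes of the rule chose the members in both tissues at different depths. They are among the genes counted above, but no test of them is given, and their levels are a description. Over all members, Foxp3 was at 72.6 and 114 against 328, 342 and 464, Il2ra at 109 and 204 against 106, 135 and 0, and Tnfrsf18 at 172 and 295 against 154, 198 and 58.0. These levels depend on the deep barcodes. The median log2 difference of the 7 genes (Foxp3 and the 6 others) was −0.51 over all members and 1.06 under 2500 genes.

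Interferon-induced genes were higher in tumor Tregs in 10 of 21 and lower in 1, beside 34.8% and 23.1% of all genes, and under 2500 genes in 10 of 12 with none lower, beside 18.8% and 17.8%. Isg15, a ubiquitin-like protein gene induced by interferon, was at 365 and 589 normalized CPM in tumor Tregs and at 19.6, 41.2 and 0 in TDLN Tregs, higher by 3.89 (SE 0.35, edgeR adjusted p = 3.0e-12). Bst2, the tetherin gene, was at 670 and 803 against 70.0, 56.8 and 86.9, higher by 3.52 and by 1.53 under 2500 genes. For both genes all tumor sums lay above all TDLN sums. The genes of the study's IFN-gamma score, which were chosen by the study, went the other way over all members, with 2 of 23 higher and 12 lower (median −0.95), and under 2500 genes 8 of 15 were higher and 1 lower (1.00). Among its members were Ccl4, a chemokine gene (5.21), and Ikzf3, a lymphocyte transcription factor gene (−3.35). Of the chemokine receptors, Ccr2 was higher by 1.68 (48.4 and 90.3 against 11.2, 24.2 and 29.0, edgeR adjusted p = 0.0014), a call lost without tumor reaction 2 (0.0911, edgeR adjusted p) and with DESeq2 (0.0612). Ccr8 differed by 0.19 (edgeR adjusted p = 0.72), and Ccr6 was lower by 4.09. Of the IL-2, JAK and STAT genes, 8 of 19 were lower and none higher over all members, beside 23.1% and 34.8% of all genes, and under 2500 genes 4 of 12 were higher and 2 lower, beside 18.8% and 17.8%, counts that include the rule gene Il2ra. Stat4, which relays IL-12, was lower by 1.98 over all members and differed by −0.58 under 2500 genes (edgeR adjusted p = 0.169).

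**Figure D5:**
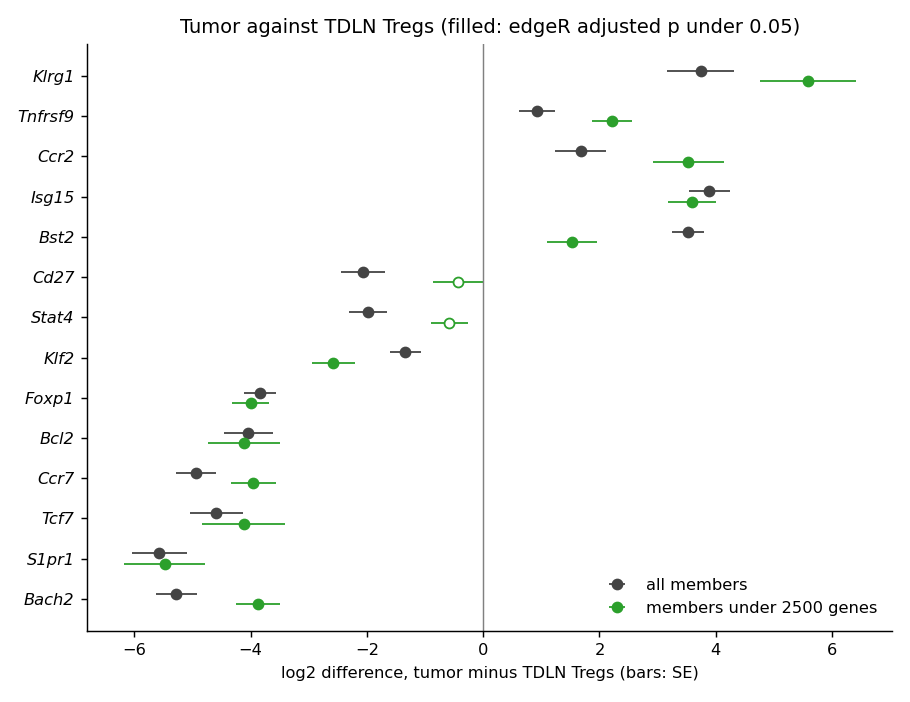
Log2 difference of tumor minus TDLN Tregs (x axis) with SE bars for 14 genes, over all barcodes (grey) and those under 2500 genes (green), filled where the edgeR adjusted p is under 0.05. Klrg1 and Isg15 are high and Ccr7, Tcf7, S1pr1 and Bach2 low in both sets, whereas Cd27 and Stat4 pass only over all barcodes.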

How the data were processed

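The authors deposited, for each reaction, counts of UMIs per gene, and in MC38 tumors per antibody, for each barcode, without normalization. The library was 10x 5′. The labels name Cell Ranger 3.1.0 and GRCm38 (mm10), and the matrix headers name Cell Ranger 8.0.1 for MC38 tumors and 7.1.0 for TDLNs. Total gene counts were 435031691 and 377184807 in MC38 reactions 1 and 2 and 127052825, 105259770 and 18055617 in TDLN reactions 1 to 3. A hashtag was called from 2 normal components fitted to its log count at a posterior of 0.5 and a count above the low component's mean (scikit-learn 1.9.0), and barcodes with exactly 1 hashtag took its treatment.

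Counts were summed over barcodes and tested with edgeR 4.0.16 (TMM, filterByExpr, quasi-likelihood, Benjamini-Hochberg threshold 0.05) in R 4.3.3, with DESeq2 1.42.0 as an alternative. Sums under 10 barcodes were left out, or under 5 where stated. Log2 class ratios used a prior of 1 count. Antibodies numbered 122 without hashtags. Isotype and CPI sums of a reaction were run together, and their deviations correlated at 0.44 for RNA and 0.07 for proteins. On simulated counts with known changes, edgeR's fit of 3 RNA sums recovered none of them, so its missing calls say little, and the other edgeR fits recovered a part or all. Named genes were the 10 with the lowest p in each direction among those called, the highest and lowest of each list, and for class ratios the 15 highest and 10 lowest genes with at least 50 UMIs. Some named genes were chosen for their role after their values were seen. The members and lists were chosen with earlier results of these data known. Of the 1416 barcode sequences common to both MC38 reactions, none was a member in both.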

Additional observations from a re-analysis of the deposited data

How the results depend on the processing

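With members limited to those with Foxp3, 39 remained (1.76% of barcodes with a CD3 gene). Under 2500 genes the share was 5.77%, and with at least 2 CD3 genes 7.66%. Left to 1 reaction, the members numbered 44 to 61 and the share was 4.58 to 4.97%. By treatment, the share with isotype in reactions 1 and 2 was 23.8% and 23.1% under 2500 genes and 27.6% and 17.6% after thinning. With the hashtag that led by 1 natural log unit it was 1.96% with isotype in reaction 2, and 15.5% and 13.6% with CPI.

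For RNA of CPI against isotype, no gene was lower without the filter on low counts, with DESeq2 or with the hashtag leading its background, which called 2 higher. At a minimum of 5 members, the hashtag that led by 1 natural log unit called 14 higher and 8 lower. That fit held 1 isotype sum, since reaction 2 had 1 isotype member, and left 1 residual degree of freedom. With 4 sums, leaving out 1 gave 0 to 15 higher and 0 to 5 lower. Reaction as a replicate block, which the pooling of both treatments in each reaction supplies, called 0 and 0 genes (41 at an unadjusted p under 0.05). For proteins the block called 7 higher and 2 lower, DESeq2 size factors called 5 and 2 and DESeq2 3 and 0 with 3 sums, DESeq2 4 and 2 with 4 sums, members under 2500 genes 8 and 2, and leaving out 1 sum 4 to 7 and 1 to 2.

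For proteins against CD4 conventional T cells, DESeq2 size factors called 0 and 0, DESeq2 4 and 1, the fit with no replicate block 5 and 3, all hashtags pooled 4 and 6, barcodes under 2500 genes 11 and 3, and both together 12 and 7. Against CD8 T cells, the CPI hashtag alone called 5 and 3 and leaving out 1 sum 2 to 4 and 1 to 2.

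For tumor against TDLN, DESeq2 called 1406 and 684, members with Foxp3 1094 and 1026, barcodes under 2500 genes 305 and 289, the TDLN rule without the B cell condition 2540 and 2487, and leaving out 1 reaction 1424 to 2137 and 989 to 1809. The split of higher and lower calls moved with that condition and with the gene limit. Of single genes, Ccr8 turned to −0.06 without the filter, to −0.12 without tumor reaction 2, and to −0.25 and −0.04 without TDLN reactions 1 and 3, none past the threshold, and reached 1.41 without TDLN reaction 2 (edgeR adjusted p = 0.0423). Under 2500 genes the mean log2 ratios to CD4 conventional T cells of Fabp5, Bpnt2 and Cxcl10 turned to 0.57, 0.10 and 0.08. Causes were not tested.

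Leaving out sums in the fit of 3 sums, and in the fit against CD4 conventional T cells, left no residual degrees of freedom and was not run. Contrasts with ABT-317 had no members under the main hashtag call. Depth limits what 105 members can show, with counts near 0 for cytokine genes.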

Other observations

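Cell cycle genes were higher in tumor than in TDLN Tregs in 15 of 17 tested and lower in none (median log2 difference 2.41, edgeR), beside 34.8% and 23.1% of all genes and a median of 0.15. Cdk1, the kinase that drives mitosis, was at 174 and 276 normalized CPM in tumor Tregs and at 0, 19.9 and 0 in TDLN Tregs, higher by 4.10 (SE 0.44, edgeR adjusted p = 2.5e-10; 0.0504 by DESeq2). Under 2500 genes only 5 of these genes could be tested. Of these 2 were higher and none lower, beside 18.8% and 17.8% of all genes (median 0.82 against −0.05). Against CD4 conventional T cells of the tumor, 4 of 17 were higher in both reactions and 6 lower, beside 27.8% and 25.5% of all genes.

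Genes of T cell receptor signaling were lower in tumor Tregs in 10 of 14 and higher in 2, beside 23.1% and 34.8% of all genes, but under 2500 genes in 1 of 12 with 2 higher, beside 17.8% and 18.8%. Cblb, an inhibitor of receptor signaling, was lower by 2.69 and Egr1, an early response factor, higher by 2.02 over all members. The cell death score genes of the study were higher in 9 of 36 and lower in 7, at or below the shares of all genes, and under 2500 genes higher in 0 of 11 and lower in 1.

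A few antibody sums rested on 1 barcode. Of the UMIs of Ms.FceRIa, the antibody to the IgE receptor, 95.9% in reaction 2 Tregs came from 1 member, and of those of Ms.CD24, 69.6%. On CD8 T cells with the CPI hashtag in reaction 2, FR4 reached 5040 UMIs per 10000 antibody UMIs in the highest barcode, against a median of 145.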
